A study of Mus musculus with 2 samples.

Results

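The annotated miRNAs miR-6240, miR-5100, miR-1938 and miR-5126 were examined for how their reads start, end and match other RNA in J1 mouse embryonic stem cells (mESCs). The members were the 4 hairpins named Mir6240, Mir5100, Mir1938 and Mir5126 of the 1174 hairpins with a miRNA name in the GENCODE M21 annotation, and all 4 had reads, as did 805 of the 1174. They were chosen by their lower read counts in PD than in control and because it was in doubt whether their reads come from processed miRNAs. A tag, which is a distinct read sequence, belonged to a member when it matched the member's hairpin perfectly over its whole length. J1 is an established mESC line, and its cells were grown without a feeder layer in the presence of LIF (1000 U/mL), which holds mESCs in self-renewal. The control cells received DMSO, the solvent, and the PD cells 1 μM PD0325901, which inhibits the kinase MEK and thereby ERK1/2, both for 24 h. RNA of independent experiments was pooled before sequencing, and with 1 library per treatment no difference between treatments had a replicate check. Of the miR-290-295 cluster, which marks mESCs, the 6 hairpins Mir290a, Mir291a, Mir292, Mir293, Mir294 and Mir295 had 1941 to 12290 reads per 1000000 clean reads (RPM) in control. Of the hairpins that mark differentiated cells, Mir122 of liver had 2.91 RPM in control and 2.01 RPM in PD, Mir1a-1 of muscle had 157 and 166 RPM, and the 3 let-7 hairpins had 857 to 3233 RPM in control.

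A miRNA is cut from a hairpin in a pair of steps, by Drosha with Dgcr8 at the base and by Dicer near the loop. The cuts leave a duplex of short RNAs whose strands overhang at their 3′ ends, and the strand loaded into the RNA-induced silencing complex has a well-defined 5′ end, since the bases that follow it, the seed, pair with target mRNAs. Bases that are not in the genome, mostly A or U, are often added at the 3′ end of a miRNA. Fragments of rRNA and tRNA also enter small RNA libraries, and an annotated miRNA hairpin may share a stretch of bases with them. A mature tRNA ends in CCA, which is added after transcription. Reads of a processed miRNA therefore stay within the hairpin, apart from such tails, while reads of a longer RNA that only shares a stretch with it leave it on either side.

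The mature forms of the 4 members in RefSeq on GRCm38.p6 are shown because their positions decide which reads can match them. Capitals mark the seed, bases 2 to 8 counted from the 5′ end. The 4 seeds differ from each other.
miR-6240: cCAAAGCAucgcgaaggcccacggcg
miR-5100: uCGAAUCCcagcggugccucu
miR-1938: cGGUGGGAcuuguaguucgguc
miR-5126: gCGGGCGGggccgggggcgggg
The Mir6240 hairpin lies on the plus strand at chr5:114851948-114852064, between genes and 1600 nt from 4930519G04Rik. The Mir5100 hairpin, at chr11:60728663-60728726 on the plus strand, lies in an intron of Mief2, a gene of the same strand. The Mir1938 hairpin, at chr12:40222712-40222811 on the minus strand, lies in an intron of Ifrd1 on the same strand, and 54 of its bases overlap exon 1 of the noncoding gene Gm7008 on the opposite strand. All 77 bases of the Mir5126 hairpin, at chr1:84695839-84695915 on the plus strand, lie opposite exon 1 of Dner, in a part that holds an untranslated region. Dner encodes a Notch ligand of neurons.

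Reads of other sequence surround 3 of the members. For Mir6240 and Mir5126 the tags that matched the hairpin with at most 2 mismatches were piled up on it, and the base carried by most of them was taken at each position covered by at least 100 reads. For Mir5100, where such tags were a mixture, the most frequent tag that leaves the hairpin on both sides was taken. The hairpin and the sequence the reads carried are set side by side, with the differing bases in capitals.
Mir6240 hairpin, bases 25 to 106: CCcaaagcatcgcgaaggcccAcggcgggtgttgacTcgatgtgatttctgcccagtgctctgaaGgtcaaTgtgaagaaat
Mir6240 reads: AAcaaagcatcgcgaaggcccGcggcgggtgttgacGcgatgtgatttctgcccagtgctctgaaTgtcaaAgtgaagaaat
Mir5100 hairpin, bases 33 to 57: AgttcgaatcccagcggtgcctcTT
Mir5100 tag: GgttcgaatcccagcggtgcctcCA
Mir5126 hairpin, bases 49 to 75: ACcgcgggcggggccgggggCggggCc
Mir5126 reads: CGcgcgggcggggccgggggTggggTc
The reads on Mir6240 differed from it at 6 of 82 bases, those on Mir5126 at 4 of 27 and the Mir5100 tag, with 27 reads in control and 37 in PD, at 3 of 25. In the substitutions named here the hairpin's base comes first, then the position counted from 1 at the 5′ end of the hairpin, then the base of the reads. At the positions C25A, C26A, A46G, T61G, G90T and T96A of Mir6240, 99.4% to 99.98% of the covering reads carried the other base. The shares were 97.2% to 99.7% at A49C, C50G, C69T and C74T of Mir5126, and 99.6% at T56C and 99.9% at T57A among the tags with at most 2 mismatches to Mir5100. At position 33 of Mir5100, 99 of these reads carried G and 178 the hairpin's A, and all 178 also carried C37G and C44G, so that none of them shared a run of 18 nt with the hairpin. No such sequence could be built for Mir1938, which too few reads covered. The mature miR-6240 covers positions 26 to 51 and so both C26A and A46G, miR-5100 covers positions 36 to 56 and T56C, and miR-5126 covers positions 52 to 73 and C69T.

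The reads that stood whole in the hairpins were lower in PD for all 4 members. Mir6240 had 2035 reads in control and 913 in PD, or 107.8 and 43.6 RPM. Mir5100 had 94 and 43 reads, or 4.98 and 2.05 RPM. Mir5126 had 51 and 34 reads (2.70 and 1.62 RPM), and Mir1938 had 33 and 9 reads (1.75 and 0.430 RPM). Only Mir6240 was thus covered by more than 100 reads in a library, and 3 reads, the limit that a count of 0 allows, correspond to 0.159 RPM in control and 0.143 RPM in PD. The fold change of PD over control was 0.404 (95% exact interval 0.373 to 0.437) for Mir6240, 0.412 (0.280 to 0.597) for Mir5100, 0.246 (0.103 to 0.525) for Mir1938 and 0.601 (0.377 to 0.945) for Mir5126. These intervals, and the Wilson intervals of shares below, cover counting error only. All 4 members were lower by 1.5-fold or greater, a change seen in 10.3% of the 435 hairpins with at least 1 RPM in either library. Scaled to the reads that match a miRNA hairpin or to the clean reads of 20 to 24 nt, Mir5126 had a fold change of 0.689 or 0.727 and was no longer lower by 1.5-fold. Of the 435 hairpins 5.06% were higher by 1.5-fold or greater, 65.5% lay below the control level, and their median fold change was 0.909. The 45 lower and 22 higher hairpins became 19 and 33 when scaled to the reads that match a miRNA hairpin and 15 and 46 when scaled to the clean reads of 20 to 24 nt, so that the balance turned with the scaling. The members had been picked with these changes known, so their count says nothing further.

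No read was identical to the mature miR-6240, miR-5100 or miR-5126 in either library, which allows up to 0.159 RPM in control and 0.143 RPM in PD. The mature miR-1938 was found whole, with 11 reads in control and 3 in PD. Among the 275 other hairpins with at least 100 reads and a mature form in RefSeq, 263 (95.6%) had at least 1 identical read. Of the reads counted for the hairpins, 1067 of 2948 overlapped the mature miR-6240 by at least 16 nt, as did all 137 of miR-5100 and all 85 of miR-5126, and all of these were shifted or shorter forms.

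The most frequent tags of each member are shown next, those whole in the hairpin first. Capitals mark bases that leave the hairpin, so that a tag in lower case is a perfect match.
Mir6240, bases 67 to 86: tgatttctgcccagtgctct
Mir6240, bases 27 to 45: caaagcatcgcgaaggccc
Mir6240, leaving: AATTAAAAcaaagcatcgcgaaggcccG
Mir5100, bases 36 to 55: tcgaatcccagcggtgcctc
Mir5100, leaving: tcgaatcccagcggtgcctcCA
Mir1938, bases 9 to 30: cggtgggacttgtagttcggtc
Mir1938, leaving: cggtgggacttgtagttcggtcA
Mir5126, bases 51 to 68: cgcgggcggggccggggg
Mir5126, leaving: TGGCGcgcgggcggggccggggg
The whole Mir6240 tag of bases 67 to 86 had 548 reads in control and 201 in PD, and that of bases 27 to 45 had 380 and 196. The tag that extends the latter by 8 bases before and a G after it had 10105 and 17605 reads. The whole Mir5100 tag had 41 and 20 reads, and the same tag with CA added had 268 and 328. For Mir5126 the whole tag had 51 and 33 reads and the tag with 5 more bases before it 400 and 296. The order was the other way round for Mir1938, with 11 and 3 reads of the whole tag and 2 and 2 reads of the tag with an A. Both tags shown for Mir1938 were tied with another. The whole tag of bases 9 to 29 also had 11 and 3 reads, and that tag with a U added had 1 and 3.

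Across all tags, most of the reads that touched Mir6240, Mir5126 and Mir5100 left the hairpin. Reads that shared a run of at least 18 nt with a hairpin were counted, and those that then ran into other bases were said to leave it. For Mir6240 these were 113372 of 116320 reads, or 97.5% (95% Wilson interval 97.4 to 97.6). They were 2110 of 2195 reads, or 96.1% (95.2 to 96.9), for Mir5126 and 901 of 1038 reads, or 86.8% (84.6 to 88.7), for Mir5100. For Mir1938 they were 18 of 60 reads, with a 95% interval of the share of 19.9% to 42.5%. The median over the 352 other hairpins with at least 100 reads was 10.1%, with 60.1% at the 95th percentile. A higher share than in Mir6240 was found in 1 of these 352, in 2 for Mir5126, in 3 for Mir5100 and in 58 for Mir1938. Mir1938 thus lay within the range of the bulk of hairpins, and the other 3 members at its upper edge. More than 50% of the reads left the hairpin in 24 of the 352 hairpins and more than 80% in 7, of which Mir6538 had 98.4%. For Mir6240 the share, counted by these runs, differed along the hairpin. Base 40 was covered by 696 whole and 45803 leaving reads in control and by 371 and 67365 in PD. At base 75 whole reads were the majority of the reads so counted, with 1305 against 96 leaving reads in control and 520 against 107 in PD. Reads without a shared run of 18 nt are not in these counts, and many reads with T61G or G90T are of this kind. The majority at base 75 may therefore not hold for all reads there.

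**Figure D1:**
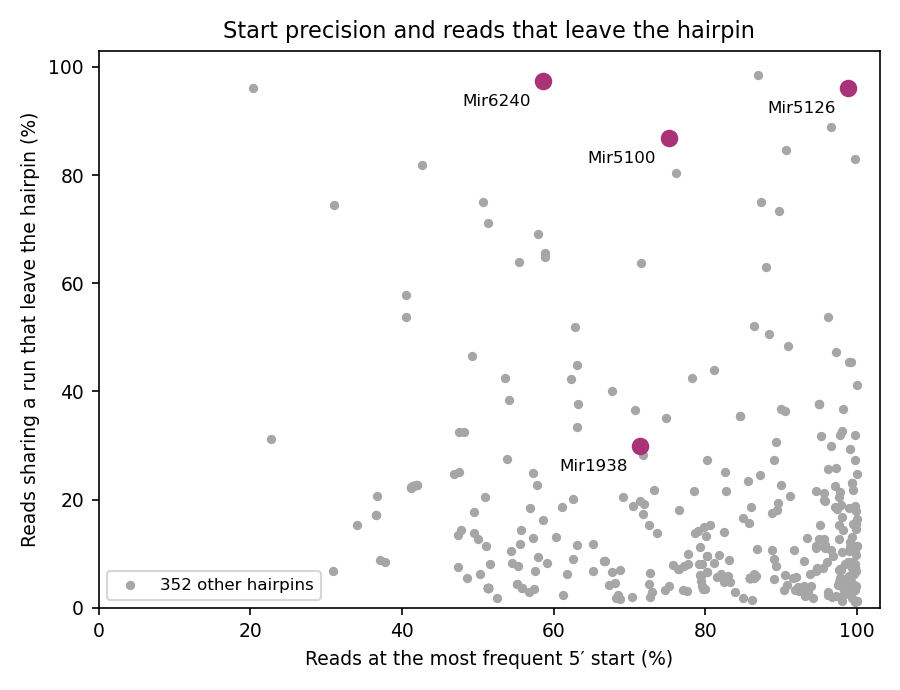
Share of reads at the most frequent 5′ start (x axis, %) against the share of reads sharing an 18 nt run that leave the hairpin (y axis, %), for the 4 members (purple) and the 352 other hairpins with at least 100 reads (grey), both libraries together. Mir6240, Mir5126 and Mir5100 lie at 97.5%, 96.1% and 86.8% on the y axis and Mir1938 well below them, while the median of the others is 10.1%.

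Nearly all reads whole in the hairpin lay in the stretches between the substituted positions. That few whole reads covered these positions is no separate result, since the positions were chosen from the same reads. In Mir5126 the stretch from C50G to C69T leaves bases 51 to 68, which is 18 nt, the shortest read kept in the libraries, and 84 of the 85 reads were this tag. In Mir5100 all 137 reads fell in the 22 nt from base 34 to 55, between A33G and T56C. In Mir6240 1064 of 2948 reads (36.1%) fell in the 19 nt from base 27 to 45 and 1824 (61.9%) in the 28 nt from base 62 to 89. The remaining 60 reads of Mir6240 (2.04%) covered a substituted position, as did 1 read of Mir5126 and 0 of Mir5100. Bases 1 to 24 of Mir6240, 1 to 32 of Mir5100 and 1 to 48 of Mir5126, upstream of the first of these positions, had 0 whole reads.

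**Figure D2:**
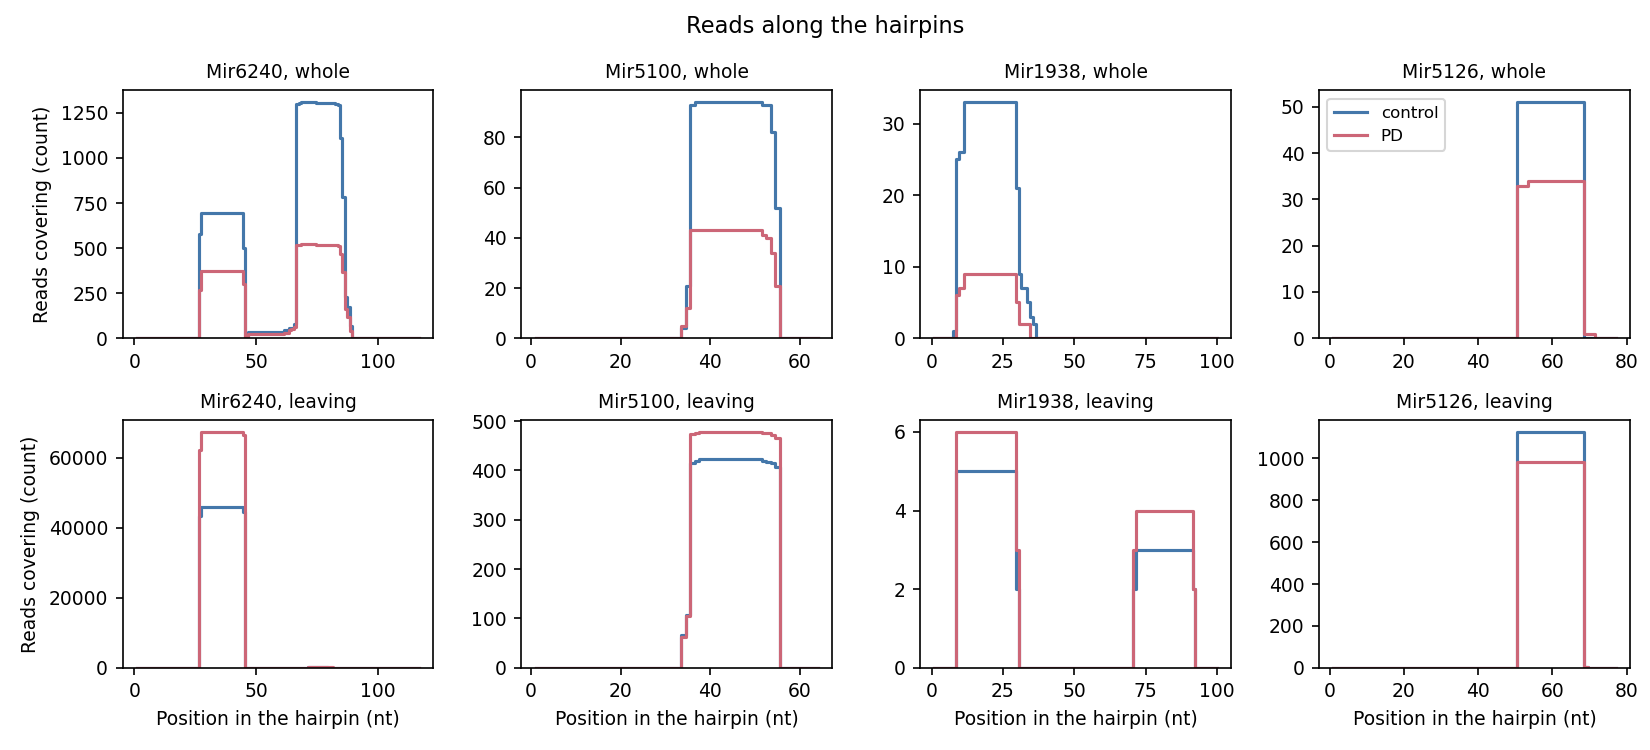
Number of reads covering each base of the 4 hairpins (x axis, position in nt from the 5′ end), with whole reads in the upper row and the shared runs of leaving reads in the lower row, in control (blue) and PD (red). Whole and leaving reads cover the same stretch of Mir5100 and of Mir5126. The leaving reads of Mir1938 include a second stack from base 71 that has no whole read.

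Mir6240 had the largest number of reads and of related reads. Whole reads formed stacks that began at base 67, with 1252 reads in control and 476 in PD, at base 27, with 577 and 266, and at base 28, next to it. A smaller stack at base 47 had 33 and 22 reads. The most frequent start held 58.6% of the reads (56.8 to 60.4), which was below 277 of the 352 other hairpins, whose median was 85.9%. Among reads that started within 5 nt of base 67 the share was 94.7%, against a median of 97.4% for the other hairpins. The stack at base 27 was less sharp, with 843 of its reads at base 27 and 224 at base 28. The ends were less uniform, since the most frequent end held 27.1% of the reads, and only 11 other hairpins had a lower share. By RNAfold the hairpin was weak for its length, with a free energy of -0.21 kcal/mol per nt against a median of -0.42, and 1 of the 352 hairpins had a weaker value. The reads at base 27 and base 67 lay on both sides of the loop (1067 and 1881 reads). In the fold, the most frequent tags of both sides, bases 27 to 45 and 67 to 86, each ended 1 nt short of the base paired with the other's first base. Both 3′ ends of the pair overhung by 1 to 3 nt in 164 of the 245 other hairpins (66.9%) that had another tag of at least 5 reads outside the top tag.

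Reads with exactly 1 mismatch to Mir6240 numbered 193082 in control and 229088 in PD, which is 143 for each perfect read. The median over the other hairpins was 0.0871 and the highest value 7.26. Most of these carried T61G. The most frequent of them consists of bases 47 to 66 of the hairpin with T61G, in capitals, and had 147684 and 172230 reads, or 7826 and 8223 RPM.
Mir6240 with T61G: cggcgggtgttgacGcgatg
With the hairpin's T at this position the same tag had 29 and 17 reads, with A it had 24 and 25, and with C 9 and 11. The count of the hairpin's own base was of the size of those of the other bases, and far below the count with G. For the tag of bases 27 to 46, 8088 and 8631 reads carried G at position 46 and 1 and 1 the hairpin's A. In all, 107907 reads ran on from the shared run with G at position 46 against 35 reads that carried the hairpin's A, and 88530 ran upstream with A at position 26 against 0 with the hairpin's C.

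The leaving reads of Mir6240, which share a run of 18 nt with it, were higher in PD, while the whole reads were lower. Reads with exactly 1 mismatch to Mir6240, most of which carried T61G, had a fold change of 1.07 (1.06 to 1.08). Those with 2 mismatches had a fold change of 0.948 (0.926 to 0.972), and some of these reads also count as leaving. As counted, leaving and whole reads lay mostly on different stretches of the hairpin. The leaving reads lay mainly on bases 27 to 45, and 1824 of 2948 whole reads lay on bases 62 to 89. The tags of bases 47 to 66 and 47 to 74 with T61G share no run of 18 nt with the hairpin. They were therefore not counted as leaving, although 395586 reads, in tags of 20 or more reads, had T61G as their 1 mismatch. Leaving reads had 2432 RPM in control and 3221 RPM in PD, a fold change of 1.32 (1.31 to 1.34), and with the whole reads added the fold change was 1.29 (1.27 to 1.30). This differed by length. Leaving reads of 28 to 32 nt had 19428 reads in control and 36413 in PD (1.69, 1.66 to 1.72), and those of 18 to 19 nt had 2593 and 5179 (1.80, 1.72 to 1.89). Those of 20 to 24 nt had 19768 and 21536 reads (0.982, 0.963 to 1.00), and those of 25 to 27 nt had 4109 and 4345 (0.953, 0.913 to 0.994), so that the higher level was not seen at these lengths. Over all clean reads the share of 28 to 32 nt was 7.11% in control and 17.0% in PD, and its part in the result was not tested. Within the stack at base 27 the fold change differed by read end. Reads of the stack around base 27 that ended at base 44 had 1469 reads in control and 700 in PD, a fold change of 0.429 (0.392 to 0.470). Those that ended 1 nt later, at base 45, had 2258 and 1599 reads (0.638, 0.598 to 0.681), and those that ended in the following G had 42397 and 64846 reads (1.38, 1.36 to 1.40). The fold change was thus higher with each added base, and the 3 counting intervals did not overlap. Among tags that started at base 27 itself the order was the same, with 196 and 69 reads for the end at base 44 (0.317, 0.237 to 0.419), 380 and 196 for base 45 (0.465, 0.389 to 0.554) and 8088 and 8631 for the G (0.961, 0.933 to 0.991), though the first pair of intervals overlapped. In this stack a read that ran on with the G did not count as whole. Whole reads that started at base 67, past this position, had a fold change of 0.343 (0.308 to 0.381). The part of the matching in the fold change of the whole reads was not tested.

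Mir5100 was covered at its 3′ side only, with 137 reads there and 0 on the other side of the loop. The most frequent start, base 36, held 72 reads in control and 31 in PD, or 75.2% of the reads (67.3 to 81.7), and base 35 held 17 and 7. The share at base 36 lay inside the range of the other hairpins, of which 122 had a lower share. Among reads that started within 5 nt of base 36 it was also 75.2%. On that measure 58 of the other hairpins had a lower share, and their median was 97.4%. The reads that left Mir5100 mostly did so by the same bases. The T56C base was carried by 864 reads and the hairpin's T by 0, and at the upstream side, among reads that shared a run of 18 nt and reached position 33, A33G was carried by 99 and the hairpin's A by 0. Of the 884 tailed reads, which match at least 16 nt of the hairpin from their start and then leave it by 1 to 4 bases, 777 ended in CCA (87.9%). Over the other hairpins together 1.66% of 608026 tailed reads ended so, the highest share in a hairpin with 20 or more tailed reads was 26.7%, in Mir434, and the other 3 members had 0.

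Whole Mir5100 reads were 0.412 of control in PD, but the tailed reads were not lower. Reads that ended at base 55 had 56 reads in control and 24 in PD, a fold change of 0.386 (0.229 to 0.633). With C after base 55 there were 49 and 54 reads (0.993, 0.662 to 1.49), and with CA there were 352 and 409 (1.05, 0.906 to 1.21). The interval of the reads that stop at base 55 did not overlap those of the longer forms. All reads that shared a run with Mir5100 together had 27.4 RPM in control and 24.9 RPM in PD, a fold change of 0.908 (0.802 to 1.03).

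Mir5126 was read as 1 tag of 18 nt. Its start share of 98.8% (93.6 to 99.8) was above 297 of the 352 other hairpins, and no whole read was of 20 to 24 nt. Only 1 tag of 18 nt fits between C50G and C69T, so neither value measures end precision or length here. Leaving reads of 20 to 24 nt numbered 923 in control and 733 in PD. The hairpin folds tightly, at -0.63 kcal/mol per nt, and 66.7% of the tag was paired, below 335 of the 352 hairpins. C50G was carried by 1760 reads and the hairpin's C by 0, and C69T by 757 reads and the hairpin's C by 10. Reads that left Mir5126 had 59.7 RPM in control and 46.9 RPM in PD, a fold change of 0.786 (0.721 to 0.857), and whole reads 0.601 (0.377 to 0.945), so that the intervals overlapped. Leaving reads of 20 to 24 nt were at 0.715 (0.648 to 0.789) and those of 28 to 32 nt, 25 in control and 59 in PD, at 2.13 (1.31 to 3.54).

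Mir1938 differed from the other 3 members in read length and in the share of reads that left the hairpin. In start share it lay between Mir6240 (58.6%) and Mir5100 (75.2%), and below Mir5126 (98.8%), where only 1 tag fits between the substituted positions. The 42 whole reads of Mir1938 lay on the 5p side, 30 of them (71.4%, 56.4 to 82.8) at base 9 and 9 at base 12. Of these 42 reads, 39 were of 20 to 24 nt (92.9%, 81.0 to 97.5). The start share was below 244 of the 352 other hairpins. Among reads that started within 5 nt of base 9 it was also 71.4%, below 300 of the others, whose median was 97.4%. The share at the most frequent end (38.1%, 16 of 42 reads) was below 291, and the length SD of 1.31 nt was above 298. The annotated miR-1938 runs from base 9 to base 30. All 18 leaving reads left by 1 or 2 bases at the 3′ end, and none at the 5′ end. On the 5p side the added bases were A in 5 reads, U in 4, AA in 1 and G in 1. A further 7 reads, 3 in control and 4 in PD, lay on the 3p side, and all of them left the hairpin by U in 5 reads and UU in 2.
Mir1938 5p, bases 9 to 30: cggtgggacttgtagttcggtc
Mir1938 3p, bases 71 to 92 and a tail in capitals: ctgaactgcagttcccatcatgT
In the fold, the forms of bases 9 to 30 and of bases 71 to 92, the latter without its tail, both overhung at the 3′ end by 2 nt. The 5p tag of bases 9 to 29 had the same counts, 11 reads in control and 3 in PD. It is shorter by the last base, and its overhang was not measured. At -0.54 kcal/mol per nt the hairpin folded more tightly than 321 of the 352 others. These 3p reads are few, 3 of them being the tag above, and the start at base 71 or 72 rests on 5 and 2 reads.

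The fold change of Mir1938 rests on few reads as well. Its whole 5p reads of base 9 had 24 reads in control and 6 in PD, and those of base 12 had 7 and 2. The leaving reads had 8 and 10 reads, a fold change of 1.13 (0.40 to 3.28), and all reads that shared a run had 41 and 19, a fold change of 0.418 (0.229 to 0.736). Both intervals overlapped that of the whole reads.

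**Figure D3:**
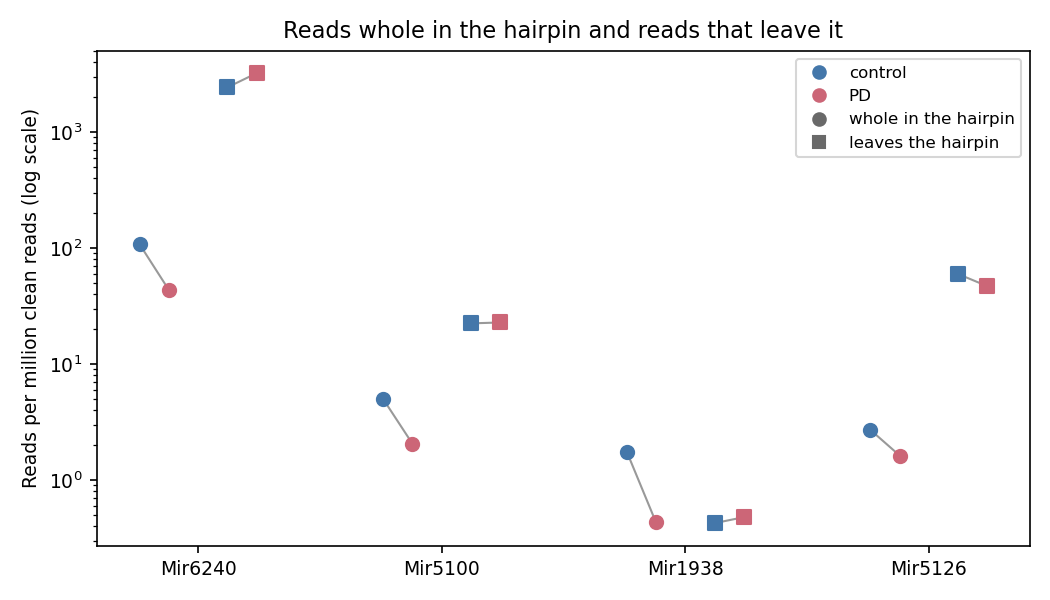
Level of the reads whole in the hairpin (circles) and of those that leave it (squares) for each member, in RPM on a log axis, in control (blue) and PD (red), 1 library each. Leaving reads are above whole reads for Mir6240, Mir5100 and Mir5126 in both libraries. For Mir1938 they are below the whole reads in control (0.424 against 1.75 RPM) and close to them in PD (0.477 against 0.430 RPM).

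**Figure D4:**
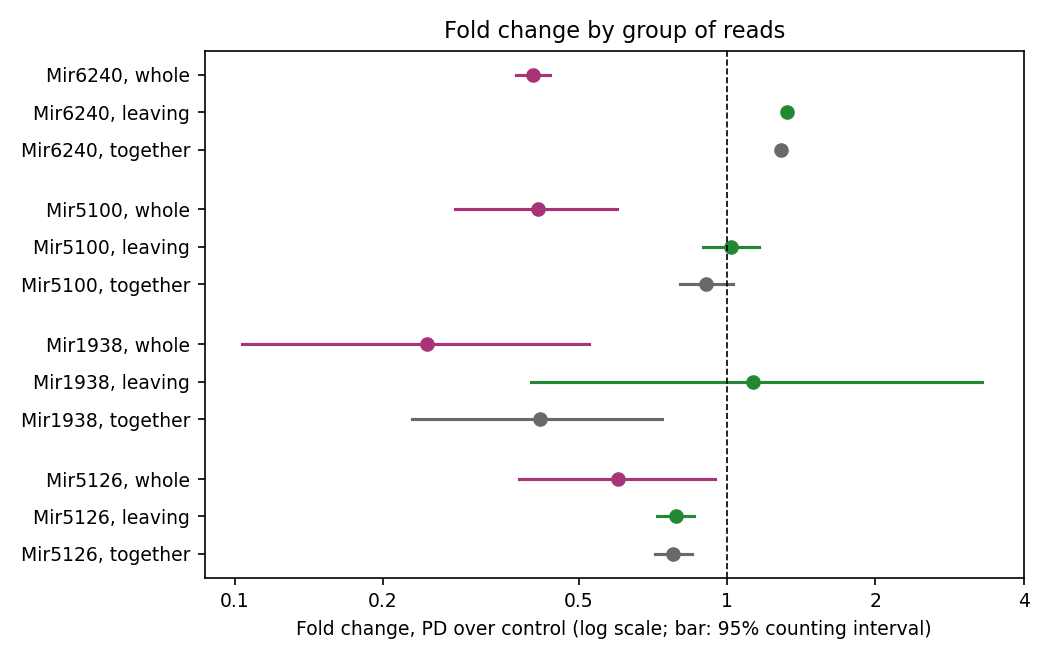
Fold change of PD over control on a log axis for whole reads (purple), leaving reads (green) and both together (grey) of each member. Bars are 95% exact intervals for counting error. Whole reads lie below 1 for all 4 members, from 0.246 to 0.601, and leaving reads from 0.786 to 1.32.

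Short reads were more frequent among the whole reads of 3 of the members, where the matching also limited read length. Nearly all whole reads fell between substituted positions, in 18 nt for Mir5126, 22 nt for Mir5100 and 19 or 28 nt for Mir6240. The shares below therefore do not show how long the reads of the surrounding sequence were. Reads of 18 to 19 nt made up 57.9% (56.1 to 59.6) of the whole reads of Mir6240, 37.2% (29.6 to 45.6) of those of Mir5100 and all 85 of Mir5126, against 0 of 42 for Mir1938, and the median of the other hairpins was 1.44%. Reads of 20 to 24 nt made up 41.4% for Mir6240 and 62.8% for Mir5100, against a median of 98.2%. In the 185 other hairpins with at least 20 reads of 18 to 19 nt, the fold change of those short reads had a median of 0.50 and was below 1 in 160. The median was 0.713 for reads of 20 nt and 0.906 for reads of 21 to 23 nt. Short reads were therefore lower in PD in other hairpins too, and the part of length in the fold changes of the members was not tested. Over all clean reads, 18 to 19 nt made up 10.9% in control and 10.6% in PD, and 20 to 24 nt made up 63.0% and 52.0%.

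**Figure D5:**
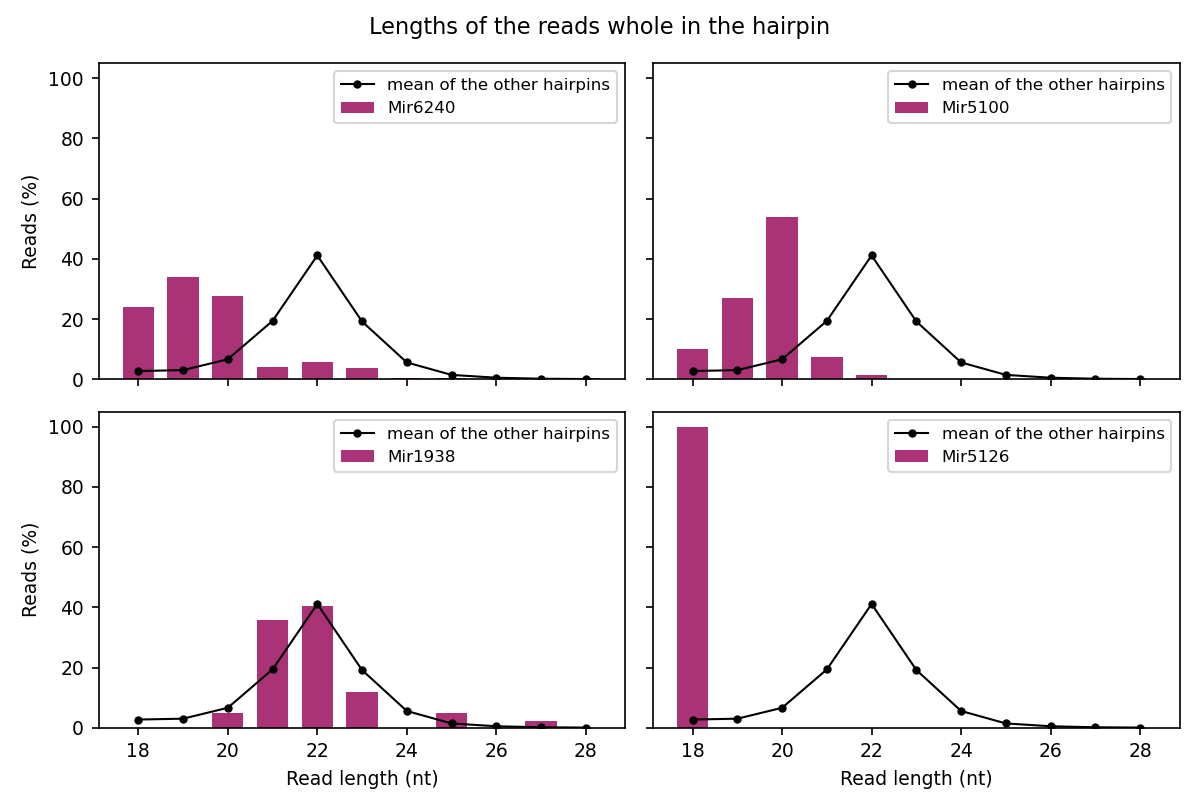
Length distribution of the reads whole in the hairpin (bars, % of the reads of both libraries) for each member, with the mean over the 352 other hairpins as a line. Reads of Mir1938 peak at 22 nt like the line, with 40.5%, while those of Mir6240 peak at 19 nt, those of Mir5100 at 20 nt and those of Mir5126 at 18 nt. The stretch between substituted positions that holds whole reads is 22 nt in Mir5100 and 18 nt in Mir5126, which limits their length.

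Matches to other transcripts of GENCODE M21 were few on the same strand. None of the 2948 reads of Mir6240, 137 of Mir5100 or 42 of Mir1938 matched another transcript perfectly, and 1 of the 85 reads of Mir5126 did, in Nova2 and Sgpl1. Counted as reads, the upper Wilson bounds of these counts of 0 are 0.130%, 2.73% and 8.38%. The reads are 47, 12 and 11 tags, and whether a tag matches is set by its sequence and the transcripts searched. The bounds therefore do not limit the share of reads from RNA that was not searched. Allowing either strand, all 42 reads of Mir1938 matched Gm7008 and all 85 of Mir5126 matched Dner, the genes that lie opposite these hairpins. With up to 1 mismatch, 84 reads of Mir5126 matched H2-Q1 and Ube2z on the same strand and 3 reads of Mir6240 matched the noncoding 4933406C10Rik. No read of the members matched an rRNA transcript of this annotation, of which the longest has 1849 nt, and the sequences of the 28S rRNA and of nuclear tRNAs were not used here.

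The measures were set beside those of known miRNAs and of the nearest hairpins. Mir21a, Mir93 and Mir191 had 95.7% to 99.4% of their reads at 1 start, 98.2% to 99.4% of 20 to 24 nt, and 4.68% to 12.7% of the reads leaving the hairpin. The 6 hairpins of the miR-290-295 cluster named above spread more widely in start share, from 34.1% for Mir292 and 50.2% for Mir295 to 97.7% for Mir290a, with 95.3% to 99.7% of 20 to 24 nt and 1.53% to 21.8% leaving. A start share like those of Mir6240, Mir5100 and Mir1938 thus also occurred in this cluster, but there with reads on both sides of the loop. The larger side held 68.1% of the reads of Mir292, 76.4% of Mir291a and 85.6% of Mir295. It held 63.8% of the whole reads of Mir6240 and 100% of those of Mir5100 and Mir1938, whose starts thus varied within 1 side. Of the 66 hairpins numbered within 20 of a member, 43 had reads and 6 at least 100 (Mir6236, Mir1934, Mir5128, Mir1949, Mir1947 and Mir1929). Mir1934 alone among these 6 had over 50% of reads leaving (65.6%), and Mir6236, numbered next to Mir6240, had 14.3% leaving and 55.7% at 1 start. By start share, length share and share matching another transcript together, the nearest hairpins were Mir296 and Mir301b to Mir6240, Mir101b and Mir339 to Mir5100, Mir92b and Mir187 to Mir1938, and Mir6538 and Mir182 to Mir5126. Of these 8, only Mir6538 (98.4%) and Mir301b (63.7%) had more than 50% of reads leaving.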

How the data were processed

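J1 mESCs were treated with PD or DMSO, and small RNA of each, pooled from independent experiments, was sequenced as 1 library. The authors gel-purified the small RNA, sequenced it, removed low-quality and adapter reads and reads under 18 nt, and deposited the raw count of clean reads for each distinct tag (18870345 in control, 20944808 in PD). The deposited files give tag length and count, without alignment or normalization. A last line with the total was left out. The members and lists were chosen with earlier results of these data known, and the members by their fold change.

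Tags were matched with Python 3.11.15 to GENCODE M21 (GRCm38) transcripts. RPM was computed over clean reads. Shares have Wilson intervals and fold changes exact Clopper-Pearson intervals (SciPy 1.17.1). With 1 library per treatment no test was run. A tailed read matched at least 16 nt of a hairpin and left it by at most 4 bases. Hairpins were folded with ViennaRNA 2.7.2. TMM factors came from edgeR 4.0.16 and size factors from DESeq2 1.42.0, over named hairpins, as alternatives. The measures were checked on simulated tags. Named hairpins were the members, those numbered within 20 of them, at most 6, with at least 100 reads, Mir21a, Mir93, Mir191 and, per member, the 2 nearest by distance over start share, length share and share matching another transcript. miRBase, a genome sequence and 28S rRNA and nuclear tRNA sequences were not used here.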

Additional observations from a re-analysis of the deposited data

How the results depend on the processing

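The direction of the fold change was kept under every alternative for Mir5100, Mir1938 and Mir5126. The members had been chosen for their lower counts in PD, and most alternatives used the same whole reads or a part of them. For Mir6240 the direction turned when all tags that share a run of 18 nt were counted (1.29). This choice and that of tags of 20 nt or more were made after seeing the data. Counting run-sharing tags moved Mir5100 to 0.908, with a counting interval (0.802 to 1.03) that included no change. The fold change of Mir6240 was 0.463 with the reads that match a miRNA hairpin as denominator, 0.490 with clean reads of 20 to 24 nt, 0.441 with TMM, 0.446 with DESeq2 size factors and 0.330 with the most frequent tag. No fold change of Mir5126 could be given for tags of 20 nt or more, since it had none.

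The start share of Mir6240 was 61.5% in control, 52.1% in PD and 90.3% among tags of 20 to 24 nt. That of Mir5100 was 93.4% within 1 nt and that of Mir5126 100% in control. The share of 21 to 23 nt was 13.5% for Mir6240 and 8.76% for Mir5100, and the share of 20 to 24 nt for Mir1938 was 100% in PD. The share matching another transcript was 100% for Mir1938 and Mir5126 on either strand, and 100% for Mir5126 with up to 1 mismatch.

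Hairpins lower by 1.5-fold or greater numbered 45, and 174 with no filter, 20 at 10 RPM or more, 9 at 2-fold, 19 with the miRNA-read denominator and 15 with clean reads of 20 to 24 nt. Those higher numbered 22, and 156, 7, 6, 33 and 46 under the same alternatives in that order. Mir5126 was lower by less than 1.5-fold with the last 2 of these denominators (0.689 and 0.727). Mir1938 has 42 whole reads and Mir5126 85, which limits what their shares and fold changes can show. The cause of these shifts was not tested.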
